A study of Homo sapiens with 9 samples.

Results

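The D cyclins, their kinase partners, the inhibitors of those kinases and the retinoblastoma gene were followed here through the withdrawal of an inducible antisense RNA in SaOS2 cells, a line derived from a human osteosarcoma. The 10 genes are CCND1, CCND2, CCND3, CDK4, CDK6, CDKN1A, CDKN1B, CDKN1C, CDKN2A and RB1, out of 20046 genes with a symbol of their own in the probe annotation. Every probe that carries one of these symbols was taken, which gave 15 of 47322 probes on the array. The transfected cells carried a construct that makes RNA antisense to APC, the scaffold of the complex that destroys beta-catenin, when doxycycline is given. Total RNA was measured on 9 Illumina bead arrays, 3 in each of 3 groups. Recovery cells had 3 days in doxycycline and then a further 3 days in medium without it. Doxycycline cells were harvested after 3 days at 1 µg/ml, and control cells were untreated. The growth medium held serum and the selection agents G418 and hygromycin, per the labels, which give no difference in it between groups. The labels name recovery and doxycycline cells as transfected, and the control only as control cells, without saying whether those carried the construct. They do not say whether the line is 1 clone or whether replicates are separate cultures, so the p-values here rest on array-to-array spread that may be purely technical. Recovery cells were also harvested later than doxycycline cells, and cells given doxycycline without the construct were not analysed here. The effects of the drug, the antisense RNA, the time in culture and any difference in transfection cannot be told apart.

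D cyclins are the part of the cell cycle machinery that responds to growth signals. They bind the kinases CDK4 and CDK6, and the active pairs phosphorylate the retinoblastoma protein (RB1), which then lets go of E2F transcription factors so that DNA replication genes can be transcribed. INK4 inhibitors such as p16 bind CDK4 and CDK6 directly, while CIP/KIP inhibitors (p21, p27 and p57) block CDK2 complexes and also help to assemble cyclin D complexes. CCND1 is known as a target of beta-catenin with TCF/LEF factors in several epithelial lines, and CDKN1A is known as a target of p53. SaOS2 cells are known to lack p53 and to carry a shortened RB1 protein.

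The arrays detected 20141 to 21317 probes each at a detection p under 0.05. Doxycycline replicates 1 and 2 stood apart: their median absolute difference from the other arrays of their group was 0.26 and 0.32 log2 units, against 0.12 to 0.14 for the other 7 arrays. The median SD of a probe between arrays was 0.133 in recovery, 0.229 in doxycycline and 0.131 in control cells. Of 12 osteoblast markers on the array, 9 were detected on all arrays of every group, among them RUNX2, SP7 and ALPL. SPP1 and PHEX were detected on none, and BGLAP on 1 doxycycline array. In recovery against control SOST fell by 2.24 ± 0.16 (limma, adjusted p = 1.5e-06) and SPARC rose by 0.90 ± 0.17 (adjusted p = 0.0034). The other 7 were not called at their brightest probe. Of 7 haematopoietic markers, 3 were detected on all arrays of every group. The deposited signal summed over all 7, not normalised between arrays, was 2960 to 3723 in recovery, 1143 to 1658 in doxycycline and 602 to 1276 in control cells. CD68, a lysosomal protein, carried that difference, at 2.49 ± 0.14 (SE) log2 units between recovery and control cells (1.02 at its other probe), and the other detected ones, CD14 at 0.25 and CD79A at -0.26, were not called (adjusted p = 0.41 and 0.33). ITGAM was detected on 1 recovery and 1 doxycycline array, and PTPRC, CD3E and LYZ on none. The part of other cells in the member results was not tested. Of 6 epithelial and 5 endothelial markers, 1 each was detected on all arrays. The APC probe, whose strand is not given, averaged 5.41 ± 0.12 log2 units in recovery, 5.42 ± 0.02 in doxycycline and 5.29 ± 0.34 in control cells (SD, n = 3 each). It was detected on 3, 3 and 1 of the arrays of these groups. The level was near background in every group, and no difference was called. In bulk RNA, fewer cells with a transcript and less of it per cell cannot be told apart.

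Of the 15 probes, 9 were detected on at least 3 arrays and entered the fit, and they covered 7 of the 10 genes. The probes of CCND2, CDKN1C and RB1 did not pass. The only probe of RB1 was not detected on any array, with deposited signals of -6.3 to -1.2 in recovery, -10.4 to -0.8 in doxycycline and -5.1 to 4.8 in control cells. The probe of CDKN1C, the p57 inhibitor, was not detected on any array either, at -1.5 to 7.8, -3.7 to 2.5 and -5.5 to 1.4 in recovery, doxycycline and control cells. The other probe of CDKN1A and the least bright of the CDKN2A probes also lay at background on every array. Signals around 0 here do not show whether the RNA was missing, low or not read by the probe, and this was not tested.

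**Figure D1:**
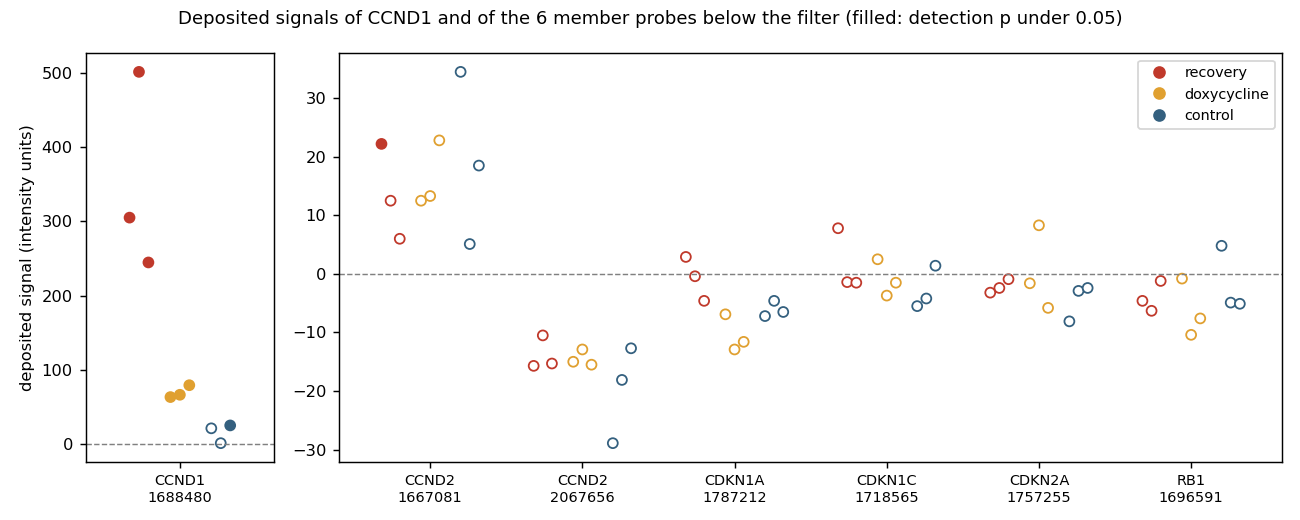
Deposited signal (intensity units, not normalised) of the CCND1 probe and of the 6 member probes that did not pass the detection filter, for each array, in recovery, doxycycline and control cells. CCND1 reaches 244.8 to 501.6 in recovery cells, while the other probes shown stay near 0 in all groups.

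CCND1, cyclin D1, was close to background in control cells, present after 3 days of doxycycline and much higher 3 days after its removal. A single probe (ILMN_1688480) measures it. Its deposited signal was 305.2, 501.6 and 244.8 in recovery replicates 1 to 3, against 63.4, 66.5 and 79.4 in doxycycline and 21.3, 1.3 and 25.2 in control replicates. No array of one group overlapped those of another. The detection p was 0 on all recovery arrays, 0.0013, 0.0039 and 0.0013 in doxycycline cells, and 0.13, 0.381 and 0.0325 in control cells, so that the probe was detected on 1 of 3 control arrays.

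On the normalised log2 scale CCND1 was at 8.26, 9.06 and 8.49 in recovery, 6.40, 6.38 and 6.36 in doxycycline and 5.05, 4.73 and 5.40 in control cells. The recovery level exceeded doxycycline, where every array detected the probe, by 2.23 ± 0.21 (SE; 95% interval 1.76 to 2.69), or 4.68-fold (limma, adjusted p = 5.2e-05). Against control the fitted difference was 3.55 ± 0.21 for recovery (adjusted p = 3.8e-07) and 1.32 ± 0.21 for doxycycline cells (adjusted p = 0.011). No fold is given for these, since 2 of the 3 control arrays were not above background and the size follows the offset added to the signals. The order of the groups held under all alternatives tried. With an offset of 50 in place of 16 in the background correction the recovery-control difference was 2.65, the recovery-doxycycline difference 1.85 and the doxycycline-control difference 0.80. The authors' processed values gave 3.82 for recovery and 1.59 for doxycycline against control. The doxycycline-control call was lost without control replicate 1 (1.29, adjusted p = 0.056), without control replicate 2 (1.16, adjusted p = 0.067) and with no detection filter (adjusted p = 0.062), while both calls against recovery held throughout.

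**Figure D2:**
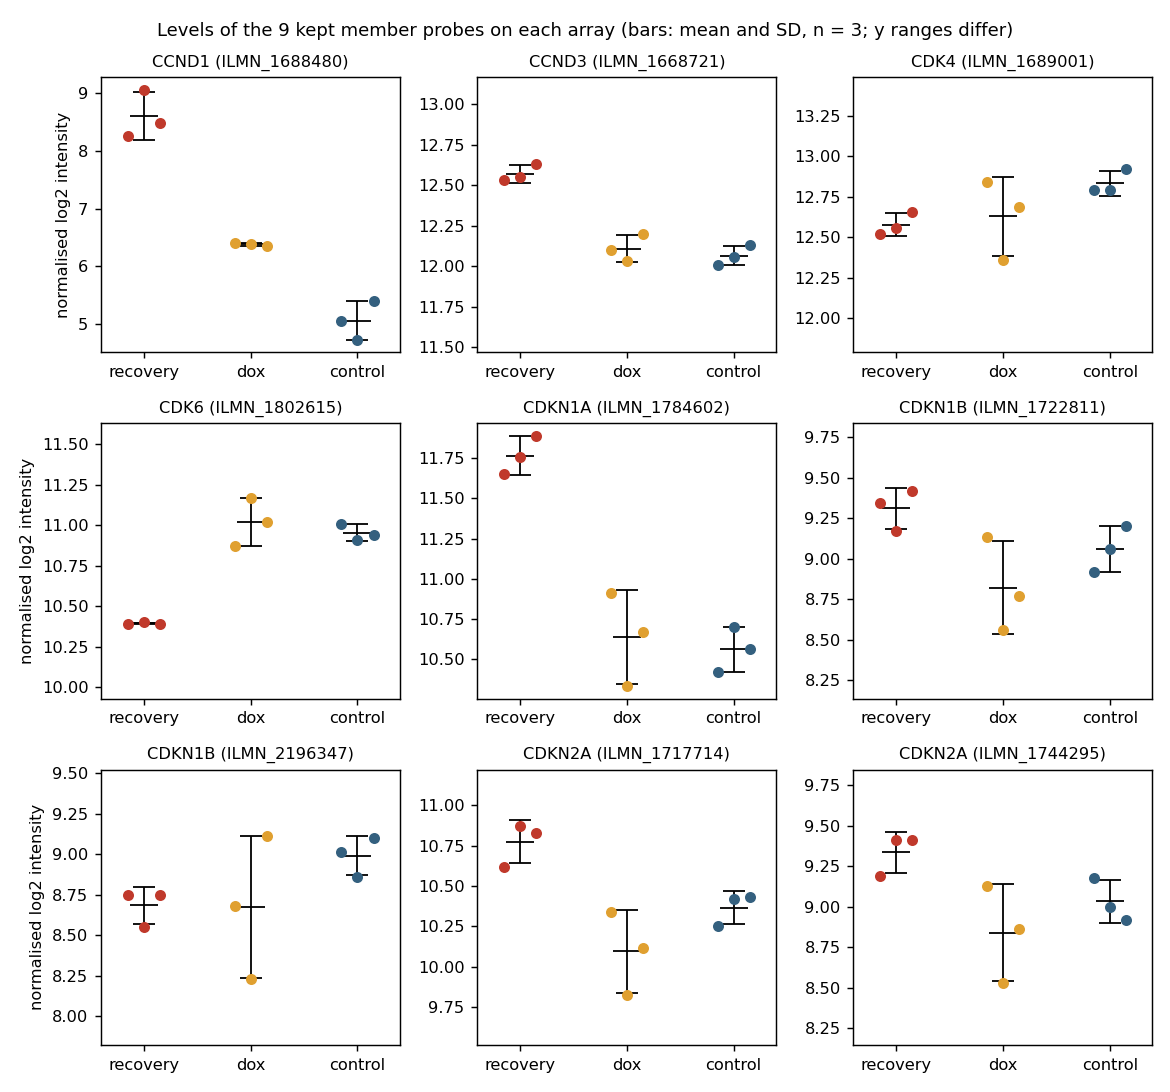
Normalised log2 intensity of the 9 kept member probes on each array (points), with the group mean and SD, for recovery, doxycycline and control cells. CCND1 shows 3 separate levels, CCND3 and CDKN1A are highest in recovery cells, and CDK6 is low in recovery cells.

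Of the other D cyclins, CCND3 was higher in recovery cells than in doxycycline and control cells, and CCND2 was not measurable. CCND3, cyclin D3, stood at 12.53, 12.55 and 12.63 in recovery, 12.10, 12.03 and 12.20 in doxycycline and 12.01, 12.06 and 12.13 in control cells. The recovery arrays lay above all others and the doxycycline and control arrays overlapped. The rise in recovery was 0.50 ± 0.12 against control (1.42-fold, adjusted p = 0.014) and 0.46 ± 0.12 against doxycycline (1.37-fold, adjusted p = 0.025), while doxycycline and control cells differed by 0.04 (95% interval -0.21 to 0.30, adjusted p = 0.85). Its recovery-control call was lost without control replicate 1 (adjusted p = 0.053), control replicate 2 (0.054) or recovery replicate 3 (0.06), and its recovery-doxycycline call without recovery replicate 1 (0.064), 2 (0.081) or 3 (0.088) and in a fit of those groups alone (0.071). CCND2, cyclin D2, gave signals of 6.0 to 22.2 in recovery, 12.5 to 22.8 in doxycycline and 5.1 to 34.5 in control cells at its brighter probe, which was detected on 1 recovery array. Its other probe was below 0 on every array.

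The kinase partners did not follow the cyclins. CDK6, which with a D cyclin phosphorylates RB1, read 10.39, 10.40 and 10.39 in recovery, 10.87, 11.17 and 11.02 in doxycycline and 11.01, 10.91 and 10.94 in control cells. All recovery arrays were below all arrays of the other groups, which overlapped each other. CDK6 fell by 0.55 ± 0.12 against control (1.47-fold lower, 95% interval -0.82 to -0.29, adjusted p = 0.010) and by 0.63 ± 0.12 against doxycycline (1.55-fold lower, adjusted p = 0.0063), and both calls held when any array was left out. Doxycycline and control cells differed by 0.07 (interval -0.20 to 0.34, adjusted p = 0.75).

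CDK4, the other catalytic partner, read 12.52, 12.56 and 12.66 in recovery, 12.84, 12.36 and 12.69 in doxycycline and 12.79, 12.79 and 12.92 in control cells. Recovery arrays lay below control arrays, but the difference of -0.25 ± 0.14 (interval -0.56 to 0.06) did not pass (adjusted p = 0.28). The doxycycline arrays spanned the recovery values, and neither the recovery-doxycycline difference of -0.05 (interval -0.36 to 0.26, adjusted p = 0.86) nor the doxycycline-control difference of -0.20 (interval -0.51 to 0.11, adjusted p = 0.42) passed.

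Among the inhibitors, CDKN1A, which encodes p21, moved furthest. Its kept probe (ILMN_1784602) read 11.65, 11.76 and 11.89 in recovery, 10.91, 10.33 and 10.67 in doxycycline and 10.42, 10.70 and 10.56 in control cells. The recovery arrays stood clear of the other 6, and the doxycycline and control arrays overlapped. CDKN1A rose in recovery cells by 1.21 ± 0.16 against control (2.31-fold, interval 0.86 to 1.56, adjusted p = 0.00036) and by 1.13 ± 0.16 against doxycycline (2.19-fold, adjusted p = 0.00089), and both calls held when any array was left out. Doxycycline and control cells differed by 0.08 (interval -0.27 to 0.43, adjusted p = 0.80), a value that was 0.23 without doxycycline replicate 2 and -0.06 without doxycycline replicate 1. CCND1 was thus called in doxycycline cells and CDKN1A was not. The difference between these 2 genes was not tested.

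CDKN1B, which encodes p27, has 2 kept probes, and they disagreed. The brighter one (ILMN_1722811) read 9.34, 9.17 and 9.42 in recovery, 9.13, 8.56 and 8.77 in doxycycline and 8.92, 9.06 and 9.20 in control cells. The other (ILMN_2196347) read 8.75, 8.55 and 8.75 in recovery, 8.68, 8.23 and 9.11 in doxycycline and 9.01, 8.86 and 9.10 in control cells. The recovery-control difference was 0.25 ± 0.16 at the brighter probe and -0.31 ± 0.19 at the other (adjusted p = 0.34 and 0.33), so that CDKN1B has no settled direction on these arrays. At the brighter probe recovery exceeded doxycycline by 0.49 ± 0.16 with all arrays higher, which missed the threshold (adjusted p = 0.068), and at the other by 0.01 ± 0.19 (adjusted p = 0.98). The brighter probe passed under 4 of 22 alternatives. It gave 0.64 without doxycycline replicate 1 (adjusted p = 0.012) and also passed with an offset of 50 (adjusted p = 0.044). The others were the brightest probe of each gene alone in the fit (adjusted p = 0.048) and array weights. The array weights did not converge and put a weight of 79.158 on doxycycline replicate 3, so that pass carries little. Doxycycline against control gave -0.24 ± 0.16 and -0.32 ± 0.19 (adjusted p = 0.39 and 0.34).

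CDKN2A makes 2 unrelated proteins from different first exons, the CDK4 and CDK6 inhibitor p16 and the MDM2 inhibitor ARF, and the array holds a probe annotated to a transcript of each. The p16 probe (ILMN_1717714) read 10.62, 10.87 and 10.83 in recovery, 10.34, 9.83 and 10.12 in doxycycline and 10.25, 10.42 and 10.43 in control cells. The ARF probe (ILMN_1744295) read 9.19, 9.41 and 9.41 in recovery, 9.13, 8.53 and 8.86 in doxycycline and 9.18, 9.00 and 8.92 in control cells. No probe sequences were at hand, so whether each probe reads only its annotated transcript was not checked. At both probes the recovery arrays were above all arrays of the other groups. The p16 probe rose by 0.68 ± 0.15 in recovery against doxycycline cells (1.6-fold, adjusted p = 0.013), a call lost without recovery replicate 2 (0.069) or 3 (0.052), and its recovery-control difference of 0.41 ± 0.15 did not pass (adjusted p = 0.095) but did without doxycycline replicate 2 (adjusted p = 0.026). The ARF probe gave 0.49 ± 0.16 against doxycycline and 0.30 ± 0.16 against control (adjusted p = 0.069 and 0.25). The first of these passed without doxycycline replicate 1 (0.64, adjusted p = 0.016) and with an offset of 50 (adjusted p = 0.045). It also passed with array weights, which did not converge and carry little. Doxycycline against control gave -0.27 ± 0.15 for p16 and -0.19 ± 0.16 for ARF, neither called (adjusted p = 0.30 and 0.50). Doxycycline replicate 2 was the array that stood furthest from its group. It was the lowest doxycycline array for CCND3, CDK4, CDKN1A and both kept probes of CDKN1B and CDKN2A, and the highest for CDK6. Its part in the differences that involve doxycycline cells was not tested beyond leaving it out.

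Promoter windows from RefSeq (build GRCh38.p14) were at hand for 7 of the 10 genes, with none for CCND1, CCND2 or CDKN1C. The 250 bases before the start are shown for CDKN1A and for the upstream of 2 starts of CDK6. These are the inhibitor and the kinase whose recovery calls held throughout in opposite directions. Both starts of CDKN2A are also shown, as its kept probes are annotated to different transcripts. The windows lie at chr6:36678464-36678713 on the plus strand for CDKN1A and chr7:92836574-92836823 on the minus strand for CDK6. For the upstream and downstream CDKN2A starts, known as those of ARF and p16, they lie at chr9:21995325-21995574 and chr9:21974858-21975107 on the minus strand. Each runs 5′ to 3′ along its gene, and capitals mark matches, on either strand, to 7 short motifs searched: TCF/LEF (CTTTGAT), the cAMP response element core (TGACGT), the Sp1 GC box (GGGCGG), AP-1 (TGANTCA), ISRE (GAAA, then NN, then GAAA), GAS (TTCNNNGAA) and E2F (TTTNNCGC).
CDKN1A: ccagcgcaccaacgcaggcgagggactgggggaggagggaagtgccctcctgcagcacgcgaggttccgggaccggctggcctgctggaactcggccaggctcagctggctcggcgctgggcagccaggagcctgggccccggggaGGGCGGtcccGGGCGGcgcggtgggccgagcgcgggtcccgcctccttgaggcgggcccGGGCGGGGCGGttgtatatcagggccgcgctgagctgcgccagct
CDK6: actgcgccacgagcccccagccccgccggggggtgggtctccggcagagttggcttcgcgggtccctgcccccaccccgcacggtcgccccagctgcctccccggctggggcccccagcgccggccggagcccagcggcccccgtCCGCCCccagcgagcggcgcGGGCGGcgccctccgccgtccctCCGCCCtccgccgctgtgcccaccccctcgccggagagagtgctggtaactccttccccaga
CDKN2A upstream start: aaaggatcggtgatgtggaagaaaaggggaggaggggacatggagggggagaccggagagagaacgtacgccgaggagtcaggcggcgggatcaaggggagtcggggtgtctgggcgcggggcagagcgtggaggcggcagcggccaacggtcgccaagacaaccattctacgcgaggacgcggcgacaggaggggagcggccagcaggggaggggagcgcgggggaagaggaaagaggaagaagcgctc
CDKN2A downstream start: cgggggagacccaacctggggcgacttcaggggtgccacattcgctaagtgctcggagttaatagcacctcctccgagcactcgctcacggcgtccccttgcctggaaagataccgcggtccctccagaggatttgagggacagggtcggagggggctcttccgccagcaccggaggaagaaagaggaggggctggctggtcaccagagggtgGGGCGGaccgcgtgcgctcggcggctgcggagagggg
The matches in the windows shown were all to the GC box, which 42.6% of 35116 RefSeq windows of this length hold. CDKN1A has 4, beginning at bases -104, -94, -45 and -40 from the start, the last pair overlapping by 1 base. The CDK6 window shown has 3, beginning at -105, -85 and -62. The window of the other CDK6 start (chr7:92833960-92834209), not shown, has no GC box and a match to the cAMP response element core at -74. The downstream CDKN2A start has 1, at -37, and the upstream start has none. The other motifs were rarer over all windows, from 2.26% for TCF/LEF to 7.10% for the cAMP response element core. A match describes the letters and is no evidence of a bound factor, and the windows leave out anything further from the start.

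At the brightest kept probe of each gene, 4 of the 7 genes that passed the filter were called between recovery and control cells, with CCND1, CCND3 and CDKN1A higher and CDK6 lower. Over all 12245 genes 16.4% were called in that comparison, 8.76% higher and 7.68% lower. Between recovery and doxycycline cells 5 were called, the same 4 in the same directions and CDKN2A higher, where 14.6% of all genes were called (6.99% higher, 7.63% lower). Between doxycycline and control cells 1 was called, CCND1, against 1.50% of all genes (1.28% higher, 0.220% lower). Across the 7 genes the median log2 difference was 0.41, 0.49 and 0.04 in these comparisons, against -0.01, -0.01 and 0.01 over all genes. The genes were chosen with earlier results of these data known. CCND1 in particular passed the detection filter through its recovery and doxycycline arrays, so these counts are a description. The comparisons share arrays, and a common direction in both recovery comparisons is partly built in.

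**Figure D3:**
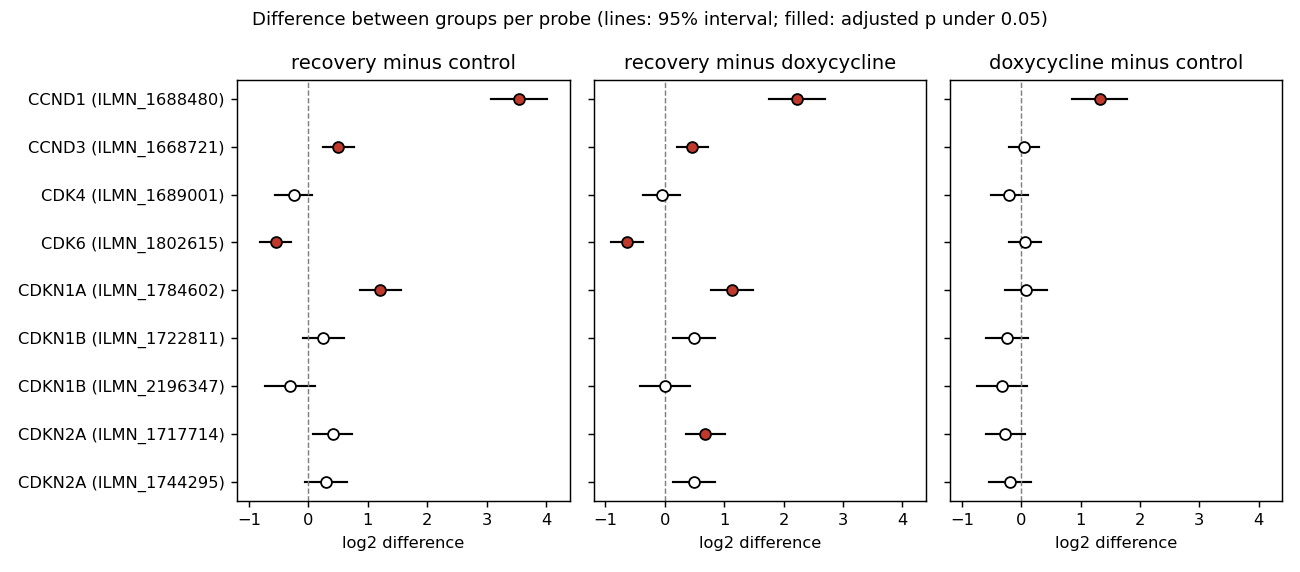
Log2 difference at each of the 9 kept member probes for recovery against control, recovery against doxycycline and doxycycline against control, with 95% intervals from the limma fit. CCND1 lies to the right of 0 in all 3 comparisons, at 3.55, 2.23 and 1.32, while the recovery intervals of CDK6 lie below 0 and those of CDKN1A above it.

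The next steps of the pathway were read from lists of genes with known roles. Of 12 pocket proteins and E2F factors kept, limma called 0 in any comparison, with 1 at an unadjusted p under 0.05 in each, and their median recovery-control difference was -0.02. E2F1 itself differed by -0.04 (adjusted p = 0.94). Of 6 kept genes for cyclin E, CDK2 and its activation, 0 were called in any comparison, with 3 at an unadjusted p under 0.05 in recovery against control and 2 in each of the others. CCNE1, cyclin E1, and CCNH, cyclin H, gave -0.36 ± 0.13 and -0.54 ± 0.18 in recovery against control (adjusted p = 0.078 and 0.061). CDK7 lay the other way, at 0.48 ± 0.19 (adjusted p = 0.11), and MNAT1 gave 0.04 ± 0.17 (adjusted p = 0.91). Without doxycycline replicate 2 in the fit, 2 of the 6 were called lower and 0 higher in that comparison. Of 16 E2F-driven replication genes, 3 fell in recovery against control cells, where 7.68% of all genes were called lower, and 0 rose, with a median of -0.21. They were TYMS, thymidylate synthase, at -0.57 ± 0.15 (adjusted p = 0.024), RRM2, a subunit of ribonucleotide reductase, at -0.49 ± 0.13 (adjusted p = 0.03), and CCNA2, cyclin A2, at -0.54 ± 0.15 (adjusted p = 0.029). Against doxycycline 0 of the 16 were called, with 1 at an unadjusted p under 0.05. Without doxycycline replicate 2, 4 were called lower against control and 2 against doxycycline. Over the whole array that fit called 5628 probes in recovery against control, against 3322 with all arrays. A rise in calls was thus not particular to these lists.

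Of 11 mitotic genes, 8 fell in recovery against control cells and 6 in recovery against doxycycline, with medians of -0.68 and -0.48, where 7.68% and 7.63% of all genes were called lower, while 0 were called between doxycycline and control (2 at an unadjusted p under 0.05). TOP2A, topoisomerase II alpha, fell by 0.68 ± 0.11 in both recovery comparisons (adjusted p = 0.0019 against control and 0.0028 against doxycycline). MKI67, the Ki-67 antigen, fell by 0.80 ± 0.20 against control (adjusted p = 0.018) and by 1.32 ± 0.20 against doxycycline (adjusted p = 0.0012). CCNB2, cyclin B2, and CENPF, a kinetochore protein, fell by 0.76 ± 0.14 and 0.74 ± 0.15 against control (adjusted p = 0.0028 and 0.0062). The cells with the highest CCND1 and CDKN1A thus had lower mitotic transcripts. A part of either gene in that difference was not tested.

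**Figure D4:**
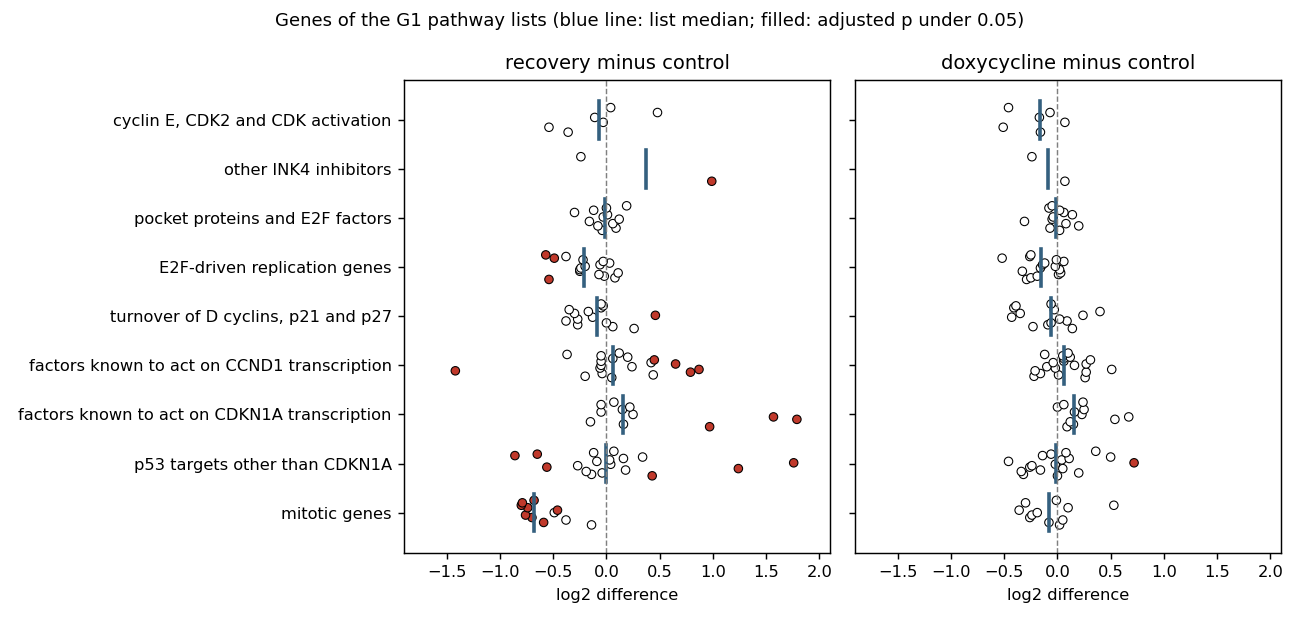
Log2 difference of each kept gene in the pathway lists, for recovery against control and doxycycline against control, one point a gene. Mitotic genes lie mostly below 0 in recovery against control (median -0.68), whereas the pocket protein and E2F genes centre on 0 (median -0.02).

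Another INK4 gene moved beside CDKN2A. CDKN2B, the p15 inhibitor that neighbours it on the chromosome, averaged 9.35 in recovery, 8.43 in doxycycline and 8.36 in control cells, a rise of 0.99 ± 0.14 against control (adjusted p = 0.00053) and of 0.92 ± 0.14 against doxycycline (adjusted p = 0.0013). The doxycycline-control difference was 0.07 (adjusted p = 0.80). CDKN2D, p19, gave -0.24 in recovery against control (adjusted p = 0.27). Of 14 kept genes for the turnover of D cyclins, p21 and p27, 1 rose in recovery against control cells, FBXO31, a ubiquitin ligase subunit known to target cyclin D1, by 0.46 ± 0.12 (adjusted p = 0.024). That count is near the 8.76% of all genes called higher and is no result about the list. Against doxycycline 1 fell, CUL4B, a cullin scaffold, at -0.47 (adjusted p = 0.028), although its other probe gave 0.09. Over all genes 7.63% were called lower there, and this count too is no result about the list. Without doxycycline replicate 2 the counts of this list were 1 higher and 2 lower against control, and 0 higher and 3 lower against doxycycline. That fit called more probes over the whole array too, 5628 in recovery against control where all arrays gave 3322.

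Of 19 kept factors known to act on CCND1 transcription, 4 rose and 1 fell in recovery against control cells, with a median of 0.06. Over all genes 8.76% rose and 7.68% fell. The list was chosen with earlier results of these data known, so the count is a description. FOSL1, a partner of JUN in AP-1, rose by 0.87 ± 0.14 (adjusted p = 0.0017), ETS2, an ETS factor downstream of RAS signalling, by 0.79 ± 0.13 (adjusted p = 0.0019), and NFKB1, an NF-kappa-B subunit, by 0.65 ± 0.12 (adjusted p = 0.0043). STAT3, which cytokine receptors activate, rose by 0.45 ± 0.12 (adjusted p = 0.023). FOS, the other AP-1 partner, fell by 1.42 ± 0.18 (adjusted p = 0.00023). Members of AP-1 thus moved in opposite directions. CTNNB1, beta-catenin, gave -0.20 (adjusted p = 0.38). In recovery against doxycycline 1 of the 19 rose and 1 fell, where 6.99% and 7.63% of all genes were called. They were ETS2 at 0.51 ± 0.13 (adjusted p = 0.025) and FOS at -1.21 ± 0.18 (adjusted p = 0.0011). FOSL1, NFKB1 and STAT3 were not called there (adjusted p = 0.12, 0.063 and 0.47). Between doxycycline and control cells, where CCND1 was called, limma called 0 of the 19, with 2 at an unadjusted p under 0.05. FOSL1 gave 0.51 ± 0.14 there (adjusted p = 0.09).

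Of 11 kept factors known to act on CDKN1A transcription, 3 rose in recovery cells against control and 3 against doxycycline, where 8.76% and 6.99% of all genes were called higher, and 0 fell. This list was also chosen with earlier results known, and its counts are a description. IRF1, an interferon-responsive factor, averaged 11 in recovery, 9.75 in doxycycline and 9.21 in control cells and rose by 1.79 ± 0.12 against control (adjusted p = 1.4e-06). KLF4, a zinc finger factor, rose by 1.57 ± 0.15 (adjusted p = 3e-05) and CEBPB, a bZIP factor, by 0.97 ± 0.12 (adjusted p = 0.00023). Between doxycycline and control cells 0 of the 11 were called at the brightest probe, with 2 at an unadjusted p under 0.05, IRF1 at 0.54 ± 0.12 (adjusted p = 0.055) and KLF4 at 0.67 ± 0.15 (adjusted p = 0.054). The other kept KLF4 probe gave 0.60 there, which passed (adjusted p = 0.045).

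Other known targets of p53 moved in both directions. Of 18 kept, 3 rose and 3 fell in recovery against control cells, with a median of 0.00, where 8.76% and 7.68% of all genes were called. PMAIP1, the BH3 protein NOXA, rose by 1.76 ± 0.15 (adjusted p = 1e-05), FAS, a death receptor, by 1.24 ± 0.16 (adjusted p = 0.00027), and AEN, an exonuclease, by 0.43 ± 0.12 (adjusted p = 0.034). TP53I3, a quinone oxidoreductase, fell by 0.86 ± 0.15 at its brightest probe (adjusted p = 0.0025), with another probe at 0.11, and TP53INP1, a stress protein, fell by 0.65 ± 0.14 (adjusted p = 0.0091). GADD45A, a DNA damage response gene, fell by 0.56 ± 0.14 (adjusted p = 0.02). ZMAT3 was not called at its brightest probe, at 0.07 ± 0.28, but its other kept probes were lower in recovery cells. They averaged 7.92 ± 0.23 in recovery and 9.12 ± 0.04 in control cells, and 8.48 ± 0.02 and 9.19 ± 0.09 (SD). The even count thus holds for the brightest probes only. PMAIP1 was the 1 gene of the list called between doxycycline and control cells, at 0.72 ± 0.15 (adjusted p = 0.043), and its other probe gave 0.61 there (adjusted p = 0.09).

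Across the 9 arrays the genes whose pattern was most like that of CCND1 were PLEKHA4, SHFL and TNFSF10, each with a Pearson correlation of 0.992, and ISG20 and IFI35 at 0.991. TNFSF10, the death ligand TRAIL, averaged 10.45 in recovery, 7.14 in doxycycline and 4.95 in control cells, and ISG20, an exonuclease, 12.43, 9.54 and 7.78. Both share with CCND1 the order of the groups, with doxycycline cells between the others. For CDKN1A the most alike were RNF4BP at 0.997, NGDN at 0.992, RNF227 and AVPI1 at 0.988 and MICB at 0.987. MICB, a ligand of the NKG2D receptor, averaged 9.07 in recovery, 8.0 in doxycycline and 7.90 in control cells. A high correlation was common on these arrays, which fall into 3 groups: 463 of 12245 genes reached 0.9 with CCND1 and 387 with CDKN1A.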

How the data were processed

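SaOS2 RNA was Cy3 labelled, per the labels, and measured on 9 arrays. The deposited signal table holds an intensity for each of 47322 probes per array, beside a detection p-value from the authors, per the file headers. The intensities are background subtracted (29.2% to 32.5% are below 0) and not normalised between arrays. The smallest step between the detection p-values was 1 in 770. The program that made these values was not given in the sources used here. The coded columns of the signal table were tied to samples by rank identity with the authors' normalised intensity table (rank correlation 1.0, at most 0.962 for any other column). Signals were corrected with normexp on the detection p-values (offset 16), log2 transformed and quantile normalised. Probes were kept if 3 or more arrays detected them (p under 0.05): 22039 probes and 12245 genes, each read at its brightest probe. The 3 contrasts came from limma 3.58.1 (lmFit, then eBayes; R 4.3.3) over all 9 arrays (6 residual degrees of freedom, prior 5.77), with Benjamini-Hochberg adjustment over all kept probes, and called at adjusted p under 0.05. The number of arrays limits the precision. The scripts were tested on simulated data. Tables used scipy 1.17.1, pandas 2.3.3, numpy 2.4.6 and Python 3.11.15.

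Probe symbols came from the platform annotation (30112 probes with 1 symbol, 8 with several, 17202 with none). The members and lists were chosen with earlier results of these data known. Genes named are all 10 members, up to 4 of each list with the smallest p over the comparisons, the 5 genes most correlated with CCND1 and with CDKN1A, and APC. STAT3, AEN, GADD45A, ZMAT3, CTNNB1, E2F1 and the cell type markers printed fall outside this rule and were chosen after their values were seen. Alternatives covered the offset, background correction, scaling, filters, the authors' values, probe averaging, the prior, a replicate block, array weights, 2-group fits and leaving out each array. No scan date or slide was used here.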

Additional observations from a re-analysis of the deposited data

How the results depend on the processing

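The member calls held better than the whole-array counts. Doxycycline against control called 310 probes, but 606 with an offset of 50, 156 with no filter, 601 with a trended robust prior, 9457 with array weights, 100 with the 2 groups alone and 73 to 3940 when an array was left out. Recovery against control called 3322, but 6984 with array weights, 5775 with the 2 groups alone and 1690 to 5628 leaving out an array. Recovery against doxycycline called 2791, but 10988 with array weights, 1684 with the 2 groups alone and 1188 to 4419 leaving out an array. The array weights put a weight of 79.158 on doxycycline replicate 3 and their estimation did not converge, so those counts carry little. Member genes called between doxycycline and control numbered 1, against 0 with no filter, 3 with array weights and 0 to 1 leaving out an array. Between recovery and control they numbered 4, against 3 to 5 leaving out an array, and between recovery and doxycycline 5, against 3 (without recovery replicate 2) to 6 (without doxycycline replicate 1). Signs turned only in differences that were not called with all arrays. In doxycycline against control these were CDKN1A at -0.06 to 0.23 leaving out an array (lowest without doxycycline replicate 1) and the dimmer CDKN1B probe at 0.12 with array weights. In recovery against control it was the brighter CDKN1B probe at -0.03 with probes averaged. In recovery against doxycycline they were CDK4 at 0.03 with median scaling and -0.18 to 0.05 leaving out an array, and the dimmer CDKN1B probe at -0.42 with array weights (adjusted p = 0.003) and -0.21 to 0.23 leaving out an array, with -0.02 without recovery replicate 1 or 3. The causes were not tested. Deviations of arrays with the same replicate number were weakly correlated, at -0.089 to 0.092, against -0.063 to 0.067 for different numbers. The same-number control-recovery pairs were all positive (0.092, 0.052 and 0.068). The doxycycline-recovery pairs were all negative (-0.054, -0.065 and -0.066). Such weak values cannot settle whether the numbers pair samples. With a replicate block 220, 2910 and 2332 probes were called in doxycycline against control, recovery against control and recovery against doxycycline, and 1, 4 and 5 member genes. Without doxycycline replicate 2 the mitotic genes called lower numbered 10 in recovery against control and 8 in recovery against doxycycline. This alternative was chosen after seeing the data, and it also called more probes over the whole array, 5628 in recovery against control. Signals near background limit CCND1 in control cells and leave CCND2, CDKN1C and RB1 unmeasured.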
